A study of Mus musculus with 6 samples.

Results

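The 40 genes described here were taken as a set for building and capping mucin-type glycans. They were picked by symbol and role, with earlier results of these data known. The roles are to start, branch, extend, fucosylate, sialylate and sulfate chains. Not every member is an enzyme of mucin-type chains: C1galt1c1 encodes a chaperone, Fut8 and St6gal1 act on N-glycans, and St6galnac3 acts mainly on gangliosides. A probe set with the gene's symbol was found for 39 of the 40, all but the branching enzyme gene Gcnt4. Of these 38 passed the filter on dim signals, against 12437 genes tested in all. The remaining member, the sulfotransferase gene Chst5, lay below the filter, at log2 signals from 4.23 to 5.26 over the 6 arrays. The RNA came from the colonic mucosa of untreated C57BL/6 mice and was read on 6 Affymetrix arrays. Of these, 3 carry the label p38a knockout and 3 the label wild type (WT A, WT B and WT C), and letters A to C also name the former. p38a is the stress kinase encoded by Mapk14. Intestinal epithelial cells are the labelled cell type. No age is given, and neither the promoter behind the deletion nor the cells that lack p38a are given in the sources used here. No label says that the arrays of a group came from separate animals, so p-values reflect the spread of these samples alone, and that spread may be technical.

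Mucin-type glycosylation begins when a polypeptide GalNAc-transferase (the Galnt genes) puts N-acetylgalactosamine, GalNAc, on a serine or threonine. C1galt1, folded with its chaperone Cosmc (gene C1galt1c1), adds galactose to make core 1, and B3gnt6 adds N-acetylglucosamine instead to make core 3. The Gcnt enzymes branch these cores, B3gnt and B4galt enzymes lengthen the branches, and fucose, sialic acid, sulfate or the Sda sugar end them. These chains make up much of the mass of the mucins that the colon secretes, and mice that lack core 1 or core 3 enzymes have a weakened mucus barrier.

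In the test across all genes (limma, Benjamini-Hochberg adjustment) 0 of the 38 members passed an adjusted p of 0.05, with adjusted p-values from 0.902 to 0.9975, and 0 of the 12437 genes tested passed (0%). An unadjusted p under 0.05 was found for 1 member, St3gal1, beside 3.94% of all genes. The mean was lower in the arrays labelled knockout for 22 members and higher for 16, where 46.8% of all genes were lower, and the median log2 difference was -0.05, against 0.02 for all genes. This lean was lost on the signals as deposited and with arrays centred on their medians. There 18 members were lower, beside 50% of all genes, and the median was 0.01 above that of all genes. It was smaller with probe sets averaged per gene (19 lower, beside 45.4% of all genes, median 0.01 against 0.03). It was larger without WT C (27 lower, beside 49.2% of all genes) and with array weights (25 lower, beside 45.7%). The groups did not overlap for 3 members, each lower in the arrays labelled knockout, where 4.38% of all genes were apart in that direction. For 0 members were the arrays labelled knockout all above the wild-type arrays, beside 4.68% of all genes. These were St3gal1, St6galnac6 and St6galnac3, of which St6galnac3 passed the filter only through its higher wild-type arrays. Which members were separate depended on the scaling. On the signals as deposited they were Galnt5 and Galnt11, both higher in the arrays labelled knockout, where 24.9% of all genes were separate. Separation was read there on unshifted signals, for which the median difference of all genes was 0.43. With arrays centred on their medians the separate members were Galnt11, higher in the arrays labelled knockout, and St3gal1 and St6galnac3, lower there. Beside these, 9.64% of all genes were separate. Signals below are log2(signal + 16) after quantile normalization, a scale on which the changes of dim genes are understated, and differences are the mean of the arrays labelled knockout minus that of wild type.

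**Figure D1:**
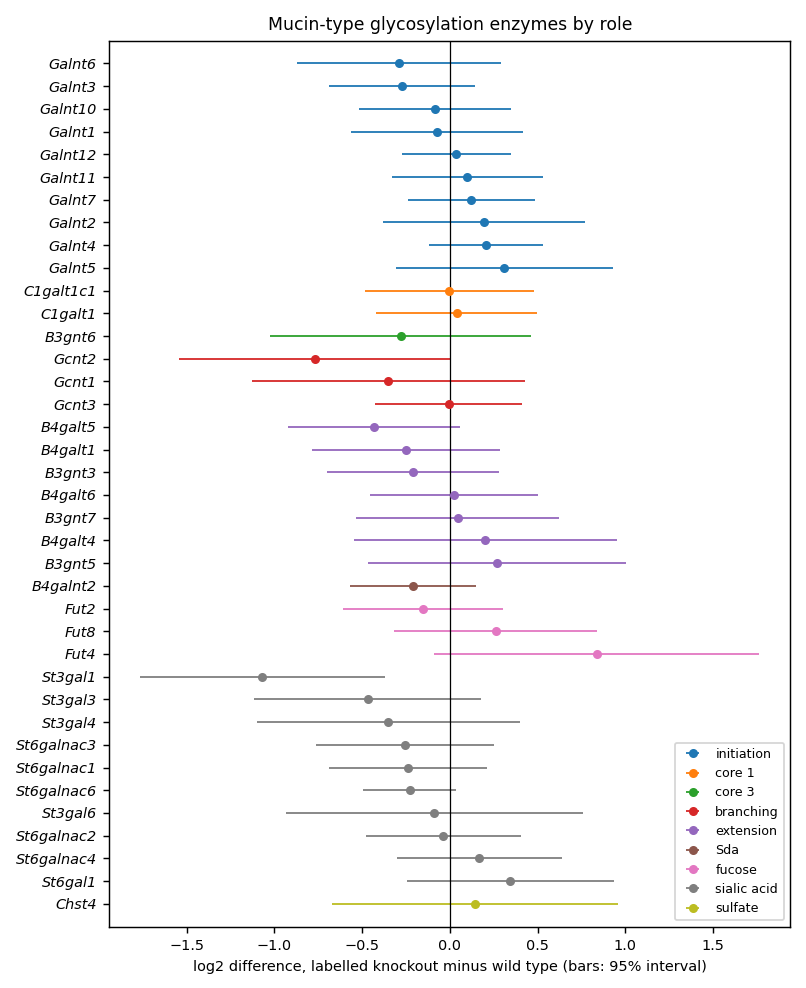
The log2 difference of each of the 38 members that passed the filter (points), labelled knockout minus wild type, with its 95% interval from limma (bars), grouped and coloured by role. The St3gal1 interval, -1.76 to -0.37, is the only one that leaves out 0.

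These arrays differed in ways that touch many members. The Gapdh control ratio (3' over 5' signal), a measure that increases with RNA breakdown, was 1.45 in WT C, from 0.989 to 1.10 in WT B and A, and from 0.859 to 0.955 in the arrays labelled knockout. It was thus lower in every array labelled knockout than in any wild-type array. The values given below with this ratio as a covariate therefore cannot tell its part from that of the label. The same ratio for Actb read 2.05, 2.27 and 1.82 in those labelled knockout (A to C) and 2.40, 2.24 and 3.25 in WT A to C. The Actb ratio overlapped between the groups, as WT B lay below the array labelled knockout B, and it was not used as a covariate. The deposited signals of WT A and C were also the dimmest, with trimmed means of 141 and 117 against 188 to 222 in the others. The brightest Mapk14 probe set read 9.79 on average in the arrays labelled knockout and 9.37 in wild type, so it was not lower in the former. Whether it lies in the deleted part is not given in the sources used here. The epithelial markers Epcam, Cdh1, Krt8, Krt18, Krt19, Vil1 and Cldn7 averaged from 12.79 to 12.98 on every array. All 9 goblet cell markers had a lower mean in the arrays labelled knockout, where their array average ran from 12.53 to 12.70 against 12.80 to 13.07 in wild type. All 7 absorptive colonocyte markers also had a lower mean there, but their array averages overlapped, from 11.09 to 12.10 against 11.66 to 12.39. Fewer cells of a type and less RNA per cell cannot be told apart in such samples. The part of RNA quality or of cell makeup in the differences below was not tested.

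The 10 GalNAc-transferase genes, which start the chains, had differences of both signs. Of them 6 had a higher and 4 a lower mean in the arrays labelled knockout, and the differences ran from -0.29 to 0.31. The groups overlapped for each on its brightest probe set. On a dimmer Galnt6 probe set, at -0.23, they did not. Galnt3, whose enzyme also protects the phosphate hormone Fgf23 from cleavage, read 10.58, 10.37 and 10.13 in those labelled knockout (A to C) and 10.78, 10.78 and 10.34 in WT A to C. WT A and B lay above all arrays labelled knockout and WT C did not, and the difference was -0.27 (SE 0.18, limma adjusted p = 0.902). Its other 2 probe sets above the filter stood at -0.02 and -0.36. Galnt4, an enzyme that prefers peptides already carrying GalNAc, read 11.42, 11.38 and 11.16 against 11.04, 11.31 and 11.00. The WT B value fell inside the range of the arrays labelled knockout, and the difference was 0.20 (SE 0.14, limma adjusted p = 0.902).

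Galnt5 read 8.30, 8.24 and 8.32 in the arrays labelled knockout and 8.43, 8.12 and 7.37 in wild type. WT C was the lowest of the 6, and the difference of 0.31 (SE 0.27) was 0.01 without it. Galnt7, another enzyme that adds GalNAc to partly glycosylated peptides, read 11.75, 11.54 and 11.64 against 11.64, 11.72 and 11.21. The difference was 0.12 (SE 0.16, 95% interval -0.24 to 0.48), and -0.07 against WT B alone. Galnt12, an enzyme known from the human colon, had the tightest wild-type values, 10.97, 10.96 and 10.93, and a difference of 0.04 (95% interval -0.27 to 0.35). The widely expressed Galnt1 and Galnt2 stood at -0.07 (SE 0.21) and 0.19 (SE 0.25), Galnt6 at -0.29 (SE 0.25), Galnt10 at -0.09 (SE 0.19) and Galnt11 at 0.10 (SE 0.19). Galnt6 was the highest in WT C, at 9.68, while the other 5 arrays ran from 8.59 to 9.04.

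The groups overlapped for the core enzyme genes on their brightest probe sets. C1galt1c1, the chaperone gene without which C1galt1 is not active, read 11.48, 11.19 and 11.19 in the arrays labelled knockout and 11.48, 11.57 and 10.82 in wild type. The means were 11.29 in both groups, and the 95% interval of the difference, -0.48 to 0.48, leaves room for a change of that size either way. C1galt1 itself stood at 0.04 (SE 0.20) on its brightest probe set, and its other 2 probe sets disagreed, at 0.13 and -0.40. On the latter the groups did not overlap. B3gnt6, the core 3 enzyme gene, read 7.90, 6.69 and 7.42 against 7.77, 7.86 and 7.24. The array labelled knockout B was the lowest of all 6, and the difference was -0.28 (SE 0.32, limma adjusted p = 0.902).

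All 3 branching enzyme genes that were measured had a lower mean in the arrays labelled knockout, beside 46.8% of all genes. Gcnt3 was lower by the smallest amount and not on the centred signals. Against WT B alone all 3 had a higher mean in the arrays labelled knockout, beside 45.9% of all genes. Gcnt2, the enzyme that turns linear lactosamine chains into the branched I antigen, read 7.95, 8.12 and 7.99 there and 9.15, 7.93 and 9.28 in WT A to C. WT A and WT C lay above all arrays labelled knockout, while WT B lay just below them. The difference was -0.77 (SE 0.34, limma adjusted p = 0.902), a 1.70-fold lower mean, but it was 0.09 against WT B alone and -0.075 once the Gapdh ratio was a covariate. Its 4 probe sets above the filter all had a lower mean, from -0.77 to -0.12. On a dim probe set among them, at -0.58, the groups did not overlap. Gcnt1, the main core 2 enzyme of blood cells and many epithelia, stood at -0.35 (SE 0.34) and read the lowest in the array labelled knockout A, at 8.61. The Gcnt1 difference was -0.002 without that array, 0.16 against WT B alone and 0.10 once the Gapdh ratio was a covariate. Gcnt3, the mucosal enzyme that makes core 2, core 4 and I branches, read 11.28, 10.71 and 10.92 against 10.96, 10.78 and 11.18. Its difference was -0.01 (SE 0.18, 95% interval -0.42 to 0.41), and 0.19 against WT B alone.

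**Figure D2:**
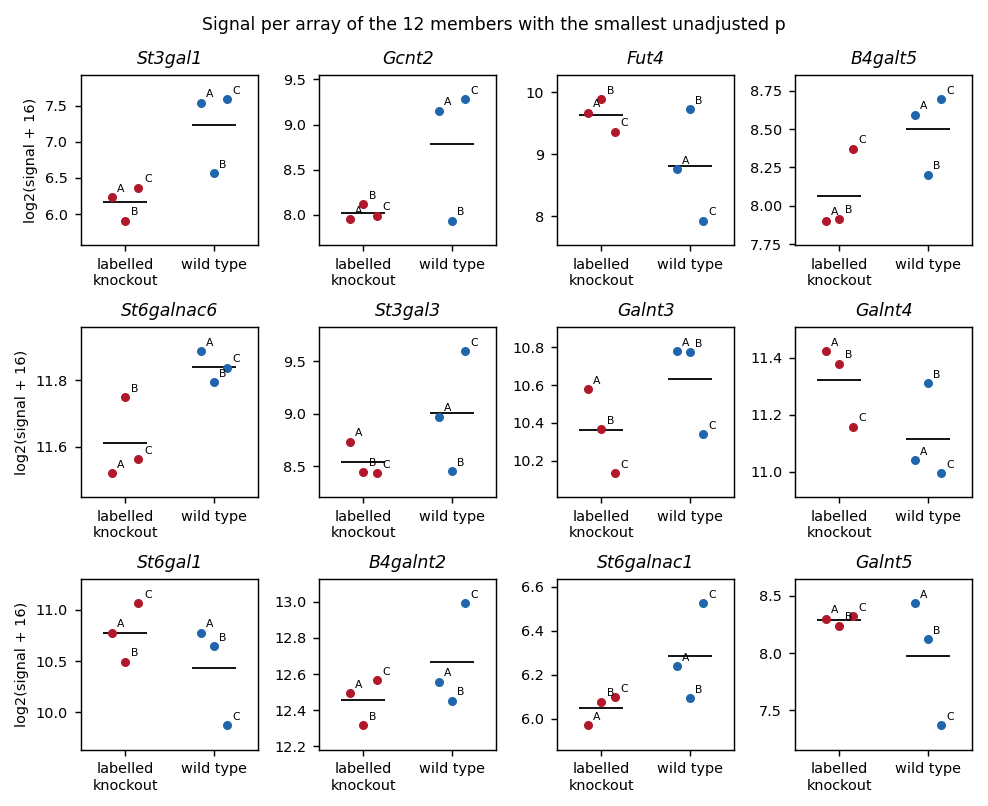
Signal, as log2(signal + 16), of the 12 members with the smallest unadjusted p, in the 3 arrays labelled knockout (red) and the 3 wild-type arrays (blue), with the letter of each array and the group mean (line). The y axes differ between genes and do not start at 0. For Gcnt2, Fut4 and St3gal3 WT B lay among or near the arrays labelled knockout while WT C lay far from them.

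Among the 7 extension enzyme genes 4 had a higher and 3 a lower mean. B4galt5, a galactosyltransferase that also makes lactosylceramide, the base of most glycolipids, read 7.90, 7.92 and 8.37 in the arrays labelled knockout and 8.59, 8.20 and 8.70 in wild type. Only the array labelled knockout C reached into the wild-type range, and the difference was -0.43 (SE 0.21, limma adjusted p = 0.902). Without WT C it was -0.33, and its dimmer probe set stood at -0.02. B4galt6, the other lactosylceramide synthase gene, stood at 0.02 (SE 0.21), and whether these genes differed from each other was not tested. B3gnt5, which starts the lacto series of glycolipids, read 10.32, 10.70 and 10.54 against 10.42, 10.86 and 9.47. WT C was the lowest by far and WT B the highest. The difference was 0.27 (SE 0.32), and -0.34 against WT B alone. B4galt1, the main lactosamine galactosyltransferase gene, stood at -0.25 (SE 0.23), B4galt4 at 0.20 (SE 0.33), B3gnt3 at -0.21 (SE 0.21) and B3gnt7, whose enzyme extends sulfated chains, at 0.05 (SE 0.25). B4galnt2, which makes the Sda sugar recognised by a lectin used to stain mouse gut, read 12.49, 12.32 and 12.57 against 12.56, 12.45 and 12.99. Its difference was -0.21 (SE 0.16), and -0.05 without WT C, and its other 2 probe sets above the filter stood at 0.00 and 0.29.

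The highest difference of any member was that of a fucosyltransferase gene. Fut4, which makes Lewis x type structures, read 9.67, 9.89 and 9.36 in those labelled knockout (A to C) and 8.76, 9.73 and 7.92 in WT A to C. The wild-type arrays spread over more than the gap between the groups, and WT B lay inside the range of the arrays labelled knockout. The mean was 1.79-fold higher in the arrays labelled knockout (log2 difference 0.84, SE 0.40, limma adjusted p = 0.902), but the difference was 0.40 without WT C, -0.09 against WT B alone and -0.10 once the Gapdh ratio was a covariate. Fut2, which makes the H antigen of intestinal secretions, read 10.32, 10.11 and 10.48 against 10.20, 10.32 and 10.84. Its difference was -0.15 (SE 0.20), and its second probe set stood at 0.15. Fut8, which fucosylates the core of N-glycans and not mucin-type chains, stood at 0.26 (SE 0.25) and turned to -0.26 against WT B alone and to -0.36 once the Gapdh ratio was a covariate.

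Of the 10 sialyltransferase genes 8 had a lower mean in the arrays labelled knockout, beside 46.8% of all genes, with a median of -0.23. From 6 to 8 were lower under the other settings, with arrays centred on their medians included (7), beside 45% to 54.1% of all genes. These settings reuse the same arrays, and St6galnac3 was not tested with the filter at the 60th percentile. The list is small, was chosen with earlier results of these data known, and was not set against other genes with a test. Of the listed cell types, the marker averages of 3 secretory ones were also separate and lower in the arrays labelled knockout. They were the goblet cell averages above, the 5 tuft cell markers (5.96 to 6.39 against 6.79 to 7.16) and the 5 enteroendocrine markers (8.38 to 8.57 against 8.67 to 9.50). Of the last, 4 had a lower mean, but Pyy stood at -0.01 and Gcg at 0.35, and Chga and Chgb were highest in WT C. The averages of every other listed cell type, from absorptive colonocytes to acinar pancreas, overlapped between the groups. These averages were read after quantile normalization only, and no share of all genes was set beside them. The part of the secretory cells in the sialyltransferase values was not tested. St3gal1, which caps core 1 by adding sialic acid to its galactose, read 6.23, 5.90 and 6.36 in those labelled knockout (A to C) and 7.54, 6.57 and 7.59 in WT A to C. All 3 arrays labelled knockout lay below all wild-type arrays, with WT B the nearest of these. The mean was 2.10-fold lower, which is -1.07 in log2 terms (SE 0.30, limma adjusted p = 0.902). The two-sided exact permutation test gave p = 0.1, its lower limit for 3 against 3 arrays. Any gene with separate groups gets that value, St6galnac6 and St6galnac3 included, so it adds nothing to the separation. The difference was -0.89 without WT C, -0.64 once the Gapdh ratio was a covariate and -0.40 against WT B alone. St3gal1 is also well known from T cells, and the T cell markers Cd3d, Cd3e, Cd3g and Cd8a averaged 6.15, 7.07 and 6.40 in those labelled knockout (A to C) against 7.21, 6.48 and 8.07 in WT A to C. These averages overlap between the groups, and all 4 markers had a lower mean in the arrays labelled knockout. Of the 6 listed T cell markers Cd4 and Cd2 lay below the filter. The part of T cells in the St3gal1 difference was not tested.

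St6galnac6, which adds a second sialic acid to glycolipids and to the Lewis structures of the colon, read 11.52, 11.75 and 11.56 against 11.89, 11.79 and 11.84. The array labelled knockout B came close to WT B, and the mean was 1.17-fold lower in the arrays labelled knockout, which is -0.23 in log2 terms (SE 0.12, limma adjusted p = 0.902). The difference was -0.18 against WT B alone, -0.19 once the Gapdh ratio was a covariate and -0.23 without WT C. Its groups overlapped on the signals as deposited and with arrays centred on their medians. St6galnac3, a related enzyme that acts mainly on gangliosides, read 5.02, 5.02 and 5.11 against 5.68, 5.12 and 5.12. The arrays labelled knockout and WT B and C lay close together, and the difference of -0.26 (SE 0.22) was -0.07 without WT A. Its mean in the arrays labelled knockout, 5.05, lay below the filter at 5.10, so that it was tested only through the higher wild-type values.

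St3gal3 read 8.73, 8.45 and 8.44 in the arrays labelled knockout and 8.98, 8.46 and 9.60 in wild type. WT B lay within the range of the arrays labelled knockout, and the difference of -0.47 (SE 0.28) was 0.09 against that array alone and -0.175 without WT C. St6gal1, whose enzyme puts sialic acid on the galactose of N-glycans, read 10.78, 10.49 and 11.06 against 10.78, 10.65 and 9.87. It stood at 0.35 (SE 0.26), at 0.07 without WT C, and at -0.27 once the Gapdh ratio was a covariate. St6galnac1, which makes the sialyl-Tn antigen and so stops a chain at its first sugar, read 5.97, 6.08 and 6.10 against 6.24, 6.09 and 6.52. Its difference was -0.24 (SE 0.20), and -0.04 against WT B alone. Of the others, St3gal4 stood at -0.35 (SE 0.33), St3gal6 at -0.09 (SE 0.37), St6galnac2 at -0.04 (SE 0.19) and St6galnac4 at 0.17 (SE 0.21). The sulfotransferase gene Chst4, which makes sulfated ligands for selectins, read 7.92, 7.85 and 7.55 against 7.90, 8.22 and 6.77. WT C was the lowest, and the difference was 0.14 (SE 0.36, 95% interval -0.67 to 0.96).

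The start sites of these genes can be set beside the values. The RefSeq table of build GRCm38.p6 holds 41 windows of 250 bases before the start of 28 of the 40 members, and 32851 such windows in all. Letters of 5 motifs were searched on both strands, among them those of AP-1 and cyclic AMP response element factors, which p38 signalling is known to reach. The AP-1 letters TGANTCA were found in 3 member windows (7.32%, beside 6.75% of all windows), those of Chst4, Gcnt4 and St6gal1, and the cyclic AMP response element TGACGTCA in 1 (2.44%, beside 1.55%), that of Galnt11. The GC box GGGCGG was found in 21 member windows (51.2%, beside 32.7%), and the median GC content of the 41 was 59.2%, beside 52.4% of all windows. Also found were the TATA box TATAAA in 1 (2.44%, beside 12.4%), that of Gcnt1, and the caudal letters TTTATNG in 2 (4.88%, beside 9.81%), those of Fut8 and Galnt11. Windows with at least 1 match were counted, matches of different motifs may overlap, and a match is only a match of letters. The windows of St6galnac6 (chr2:32599459-32599708, plus strand), St6galnac3 (chr3:153725134-153725383, minus strand) and Fut4 (chr9:14752123-14752372, minus strand) are shown because the first 2 belong to members with separate groups after quantile normalization and the third to the member with the highest difference. They run 5′ to 3′ on the strand of the gene, up to the base before the start, and capitals mark any of the 5 searched motifs. Of the windows shown only that of St6galnac3 holds one, a GC box 86 bases before the start. The window of B4galt5, not shown, holds 7 GC boxes, and there is no window for St3gal1.
St6galnac6: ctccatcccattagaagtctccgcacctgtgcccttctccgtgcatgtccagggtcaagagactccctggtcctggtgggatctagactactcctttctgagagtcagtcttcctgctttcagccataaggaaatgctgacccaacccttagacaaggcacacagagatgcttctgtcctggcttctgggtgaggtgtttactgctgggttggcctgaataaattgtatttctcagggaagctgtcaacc
St6galnac3: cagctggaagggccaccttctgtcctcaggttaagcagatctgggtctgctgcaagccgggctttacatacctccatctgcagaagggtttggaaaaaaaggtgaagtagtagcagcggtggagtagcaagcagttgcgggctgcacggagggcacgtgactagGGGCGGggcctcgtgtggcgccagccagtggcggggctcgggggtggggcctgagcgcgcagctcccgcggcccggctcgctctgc
Fut4: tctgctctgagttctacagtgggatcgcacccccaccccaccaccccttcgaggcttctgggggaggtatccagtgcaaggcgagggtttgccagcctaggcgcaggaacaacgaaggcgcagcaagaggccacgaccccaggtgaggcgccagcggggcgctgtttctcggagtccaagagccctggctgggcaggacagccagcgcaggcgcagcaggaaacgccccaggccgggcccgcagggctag

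Across the 6 arrays, WT C held the lowest value of 16 of the 38 members (42.1%, beside 32.8% of all genes) and the highest of 10 (26.3%, beside 30.3%). Fut4, B3gnt5, Chst4 and St6gal1 were among those low there, and Gcnt2, Fut2, B4galnt2 and Galnt6 among those high. WT A held the lowest value of 0 members, beside 14.5% of all genes. The SD among the wild-type arrays was larger than that among the arrays labelled knockout for 25 members, beside 70.8% of all genes. The median SD of the members was 0.33 and 0.21 in these groups, against 0.29 and 0.19 over all genes.

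**Figure D3:**
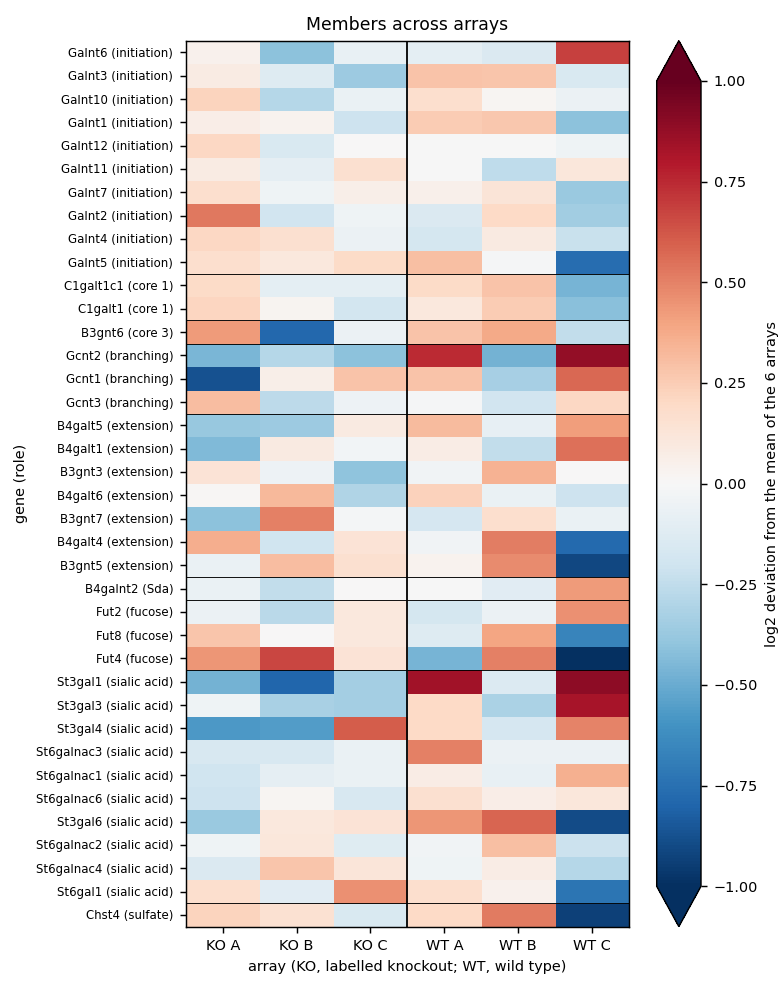
Log2 deviation of each of the 38 members from its own mean over the 6 arrays, in rows ordered by role, with the arrays labelled knockout (KO) left of the line and wild type (WT) right of it. Red is above and blue below the gene's mean, and the colours stop at 1 on either side. WT C is the lowest array for 16 members and the highest for 10.

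The direction depended on which wild-type arrays served as control. Of the 38 members 22 (57.9%) had opposite signs against WT B and against the mean of WT A and C, beside 57.2% of all genes, a share near that of the background. Against WT A and C 10 members differed by more than 0.5, beside 21.2% of all genes. Against WT B 2 did, St3gal6 at -0.63 and B3gnt6 at -0.52, beside 8.595% of all genes. With WT B as the only control 24 members had a lower mean, beside 54.1% of all genes. With the Gapdh ratio as a covariate 21 members turned in direction, but the share of all genes that turned was not computed. That ratio separates the groups by itself, so its part and that of the label cannot be told apart in this fit.

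**Figure D4:**
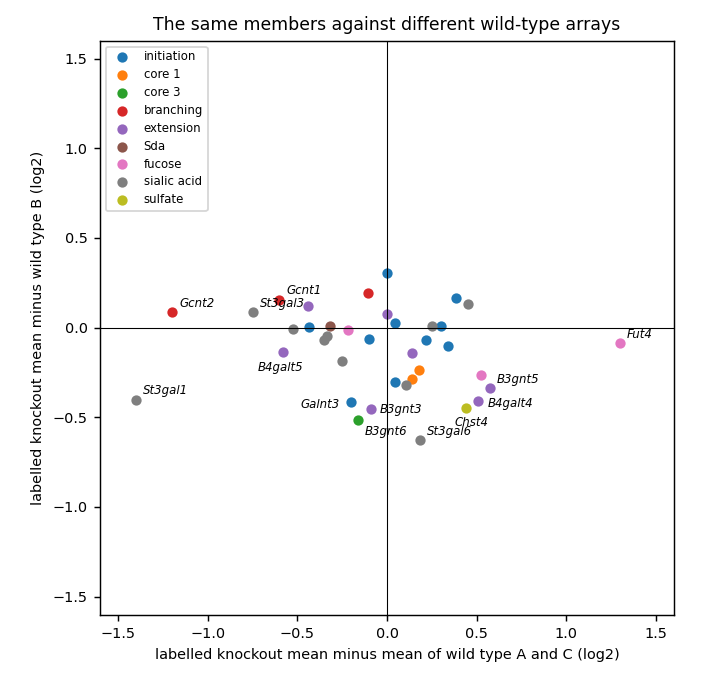
For each of the 38 members, the log2 difference of the mean of the arrays labelled knockout from the mean of WT A and C (x axis) and from WT B (y axis), coloured by role; members far from 0 are named. Fut4 lies at 1.30 and -0.09, Gcnt2 at -1.20 and 0.09, and St3gal1, at -1.40 and -0.40, is lower on both axes.

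The other probe sets of a gene read the same RNA on the same arrays, so they cannot tell the label from an odd array. Of the 21 members with at least 2 probe sets above the filter, 12 had all of them on the same side and 9 had them on both. The same share over all genes was not computed. Those with all probe sets lower were Gcnt1, Gcnt2, Gcnt3, St3gal3, B4galt5, Galnt3 and Galnt6, and those with all higher were Galnt4, Galnt7, Fut8, B3gnt5 and St6galnac4. For St3gal1, St6galnac3, St6galnac6 and Fut4, 1 probe set passed the filter.

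The rest of the pathway was measured as well. Of 48 listed transferases of the same families that are not members, 27 passed the filter, and 0 passed the test (unadjusted p under 0.05 for 1 of them). Of the 27, 16 had a lower and 11 a higher mean, beside 46.8% of all genes lower. The lower ones were 21 on the signals as deposited and with arrays centred on their medians (50% of all genes), and 12 once the Gapdh ratio was a covariate (51.3% of all genes), which turned the lean. St8sia5, which lengthens sialic acid chains on gangliosides, read 6.15, 6.47 and 6.53 in the arrays labelled knockout and 6.87, 7.01 and 7.53 in wild type. No array of either group reached into the other, and the difference was -0.75 (SE 0.23, limma adjusted p = 0.902). Galntl6 stood at -0.39 (SE 0.21) and B4galnt1, the ganglioside GalNAc-transferase gene, at -0.49 (SE 0.27).

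The genes that supply the sugars mostly had a higher mean. Of 28 tested genes that make, activate or carry the sugar and sulfate donors, 24 had a higher mean in the arrays labelled knockout, beside 53.2% of all genes, with a median of 0.12, and 0 passed the test (unadjusted p under 0.05 for 0). Nans, which makes sialic acid, read 11.67, 11.88 and 11.58 against 11.35, 11.81 and 10.58. WT C was the lowest by far, and the difference was 0.46 (SE 0.28, limma adjusted p = 0.902). Uap1, which makes the donors of GalNAc and N-acetylglucosamine, stood at 0.23 (SE 0.14) and Slc35a3, a Golgi carrier of the latter, at 0.29 (SE 0.18). Of the 28, 17 were higher without WT C (50.8% of all genes), 14 against WT B alone (45.9% of all genes) and 12 once the Gapdh ratio was a covariate (48.7% of all genes). The mean deviation of these genes from their own averages was -0.17 in WT C and -0.03 in WT A, against 0.05 in WT B.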

How the data were processed

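The values are linear signal intensities of 45101 probe sets on 6 arrays, as deposited by the authors, with replicates not pooled. MAS5 is named in the submitters' processing notes, while its scaling target is not known here. The number of arrays limits the precision.

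Signals were turned into log2(signal + 16) and quantile normalized. Probe sets whose mean lay below the 40th percentile (a signal of 18.4) were left out. The platform annotation gave 34945 probe sets 1 symbol, 932 several and 9160 none, and each gene was represented by its brightest probe set. The test was limma 3.58.1 in R 4.3.3 (lmFit, then eBayes with trend), with Benjamini-Hochberg adjustment over 12437 genes. In simulations of 12437 genes limma recovered 34.3%, 98.3% and 100% of genes changed by 1, 2 and 3 on the log2 scale. Of its calls there 2.42%, 6.62% and 5.2% were false. Whether these rates hold for the measured arrays was not tested. Over all genes their median SD was 0.29 in wild type and 0.19 in the arrays labelled knockout.

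The members and lists were chosen with earlier results of these data known. Values per array are given for the 12 members with the smallest unadjusted p, those with separate groups and the brightest of each role, and 3 genes are named from each further list. B3gnt6, Galnt12 and the genes with printed promoters were singled out after their values were seen. The 32 donor symbols include older names of 2 genes. Alternatives were 2 other scalings, pseudocounts of 1 and 64, no filter or one at the 60th percentile, the mean of probe sets, no trend, array weights, a replicate block, the Gapdh ratio as covariate, WT B alone as control, and each array left out in turn.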

Additional observations from a re-analysis of the deposited data

How the results depend on the processing

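No member, other listed transferase or donor gene was called by limma in any of the 18 other settings. The count of members with a lower mean, 22, ran from 18 to 27 over them. The median difference, -0.05, was -0.19 once the Gapdh ratio was a covariate, where the median of all genes was -0.01. The count of members with separate groups, 3, was 17 against WT B alone, where 48.6% of all genes were separate. When single arrays were left out it ran from 4 without WT A (13.9% of all genes) to 10 without WT B (36.8% of all genes). Smaller groups separate more easily. The count was 2 with the filter at the 60th percentile, St3gal1 and St6galnac6, beside 9.06% of all genes. On the signals as deposited it was also 2, where 24.9% of all genes were separate. These were Galnt5 and Galnt11, both higher in the arrays labelled knockout, and no sialyltransferase. With arrays centred on their medians Galnt11, higher in the arrays labelled knockout, took the place of St6galnac6, and 9.64% of all genes were separate. Once the Gapdh ratio was a covariate, B4galt1 turned to 0.24, St6gal1 to -0.27 and Fut8 to -0.36, and Fut8 turned to -0.26 against WT B alone. The cause of these turns was not tested. On the signals as deposited and with arrays centred on their medians, differences were taken relative to the median of all genes, 0.43 and 0.20. Separation of the groups was read without this shift. The default estimate of array weights did not converge, so the gene-by-gene estimate was used. With a replicate block on the letters, 0 members were called and 22 were lower. Correlations of same-letter deviations over genes were -0.04, -0.11 and 0.45 for A, B and C. Those of different letters ran from -0.45 (knockout A with WT C) to 0.51 (knockout A with WT B). Such values cannot settle whether the letters pair the samples, and the labels do not say.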
